A study of Mus musculus with 6 samples.

Results

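CC chemokines are small secreted proteins that bind G protein-coupled receptors on leukocytes and draw those cells towards their source. Their name comes from a pair of adjacent cysteines near the amino terminus. Ccl2, Ccl7, Ccl8 and Ccl12 belong to the monocyte chemoattractant branch of the family, Ccl11 is eotaxin, Ccl5 is RANTES, Ccl17 attracts T cells that carry Ccr4, Ccl20 is the ligand of Ccr6, and Ccl9 is a mouse chemokine that binds Ccr1. In prostate tumours such chemokines are made by stromal, myeloid and tumour cells, and CCL2 is known as a chemoattractant of the monocytes from which tumour macrophages arise.

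The 8 CC chemokine genes described here (Ccl2, Ccl5, Ccl7, Ccl8, Ccl9, Ccl11, Ccl17 and Ccl20) were found by the gene name of the array probes, and they are 8 of the 36028 genes that had a usable probe. Each had 1 probe, and the Ccl2 probe was printed as 10 spots. Transcripts were measured on 6 one-colour Agilent mouse arrays, 2 for each of 3 groups. The cells were N18-CFMS, also written N18-Fms, a single luciferase-expressing, neomycin-resistant subclone of the TRAMP C2H mouse prostate cancer line, transduced by a retrovirus with the murine wild-type CSF-1 receptor (c-fms) and sorted for it. All 3 groups carried that receptor and grew in medium with fetal bovine serum and dihydrotestosterone. The control group was left unstimulated. The other groups received 100 ng/ml of recombinant mouse CSF-1 for 24 h or for 48 h according to the labels (the methods text gives other times). Unstimulated and without CSF-1 here mean that none was added. The paper detected CSF-1 in medium conditioned by N18 cells before transduction, and proposes autocrine activation of the receptor in cells that carry it. The CSF-1 receptor is the growth factor receptor of macrophages, and the comparison asks which transcripts follow added CSF-1 in a tumour cell. As these are values from 1 clone and 2 experiments, p-values measure only the spread between these arrays.

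Levels are given as log2 of the processed probe signal, from which that of the 75th percentile of its array was taken, so that 0 is the signal of a probe brighter than 75% of the array. They are comparable between arrays for 1 probe and not between probes. A gene entered the test if its probe stood well above background in some group on each of its arrays, which held for 24648 genes and for 6 of the 8 CC chemokines. The exceptions were Ccl11 and Ccl20. Ccl17 passed through the 24 h group alone. Of the list genes named below, Ccl6 passed through the unstimulated group alone, and Ctss, Il18 and Mcpt4 through the 48 h group alone. Ccl12, Cxcr7, Il6 and Cdh5 passed through the stimulated groups alone. As the filter favours genes that are high in such groups, their changes are given as a description. On an array of 59305 spots, 58.7% to 72.0% stood well above background and 0 were saturated. The replicates of a group correlated at r of 0.994 to 0.995 over the probes above background on every array. The first 24 h replicate lay on a slide and scan of its own and the other 5 arrays on another, so the 24 h difference of each gene tested is also given without it. The brightest of 3 Csf1r probes read between 4.88 and 5.34 on all 6 arrays. Scaling to the array median in place of the 75th percentile would lower every change at 24 h by 0.28 and at 48 h by 0.10 and raise those from 24 h to 48 h by 0.18.

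Most of these genes are neighbours on mouse chromosome 11. In RefSeq the order is Ccl2, Ccl7, Ccl11, Ccl12, Ccl8 and Ccl1 in a first group and Ccl5, Ccl9, Ccl6, Ccl3 and Ccl4 in a second, with the pseudogene Ccl16-ps between Ccl5 and Ccl9. On build mm9, as the array files give it, the Ccl2 probe lay at chr11:81850650-81850709, that of Ccl7 at chr11:81860656-81860715, that of Ccl11 at chr11:81876072-81876131 and that of Ccl8 at chr11:81930108-81930167, all on the plus strand. The Ccl5 probe at chr11:83339296-83339355 and the Ccl9 probe at chr11:83388223-83388282 lay on the minus strand. Ccl17 was read at chr8:97335770-97335829 and Ccl20 at chr1:83115682-83115741. Because the monocyte chemoattractants are similar in sequence, the probes were compared. Over the 28 pairs among Ccl2, Ccl5, Ccl6, Ccl7, Ccl8, Ccl9, Ccl11 and Ccl12, the longest run of bases shared by any pair of these probes of 60 bases was 9. The probes were not compared with the transcripts of the other genes, so binding of a related transcript to a probe was not tested.

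The RefSeq promoter table (GRCm38.p6) held 4 of the 8 genes, and Ccl12. The 250 bases before the start of transcription are shown for Ccl8 and Ccl12, whose transcripts were the ones that rose most among the CC chemokines, and for Ccl9, which fell. Capitals mark matches on either strand to 5 motifs. An ISRE core, GAAANNGAA, is known to bind interferon-activated factors, and a GAS element, TTCNNNGAA, to bind STAT dimers. An NF-kB site binds Rel proteins. An AP-1 site, which binds Fos and Jun, was taken as TGANTCA. The TATA box, which places the basal transcription machinery, was taken as its core letters TATAAA. Ccl8 lies at chr11:82114935-82115184 on the plus strand, Ccl12 at chr11:82101595-82101844 on the plus strand, and Ccl9 at chr11:83578637-83578886 on the minus strand.
Ccl8: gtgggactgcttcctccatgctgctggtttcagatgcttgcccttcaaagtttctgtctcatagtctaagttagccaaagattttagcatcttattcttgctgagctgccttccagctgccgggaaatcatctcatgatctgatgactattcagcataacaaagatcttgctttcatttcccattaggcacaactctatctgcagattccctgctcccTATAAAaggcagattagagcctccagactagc
Ccl12: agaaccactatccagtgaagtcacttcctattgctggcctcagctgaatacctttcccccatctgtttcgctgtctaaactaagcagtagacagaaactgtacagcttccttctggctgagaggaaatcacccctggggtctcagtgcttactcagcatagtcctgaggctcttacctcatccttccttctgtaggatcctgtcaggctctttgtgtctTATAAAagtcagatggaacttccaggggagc
Ccl9: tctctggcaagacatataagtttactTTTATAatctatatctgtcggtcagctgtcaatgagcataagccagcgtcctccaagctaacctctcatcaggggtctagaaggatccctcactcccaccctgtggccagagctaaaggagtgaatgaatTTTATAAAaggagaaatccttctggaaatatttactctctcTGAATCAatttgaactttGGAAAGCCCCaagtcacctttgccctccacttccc
The Ccl8 window held a TATA box from 32 to 27 bases before the start, and the Ccl12 window one from 31 to 26 bases before it. Neither held a match to the other 4 motifs. The Ccl9 window held an AP-1 match from 53 to 47 bases and an NF-kB match from 35 to 26 bases before the start, together with 3 TATA matches, of which one overlaps another. Among 32851 promoter windows of this length, 12.4% held the TATA box, 7.3% the NF-kB site, 7.1% the ISRE core, 7.0% the GAS element and 6.7% the AP-1 site. At the same distance from the start, the Ccl8 and Ccl12 windows had the same base at 36.0% of positions, against 26.8% for Ccl8 and Ccl9 and 24.0% for Ccl12 and Ccl9. A match describes these letters, not a bound site.

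At 24 h of CSF-1, Ccl7 and Ccl8 were higher and Ccl9 was lower than in unstimulated cells. At 48 h, Ccl2, Ccl7 and Ccl8 were higher and Ccl9 was lower. Ccl5 did not pass the test at either time. A call is an adjusted p under 0.05 from limma on all 6 arrays, with Benjamini-Hochberg adjustment over the 24648 genes. At 24 h, 2 of the 8 genes were called higher and 1 lower, where 8.02% of all genes tested were called higher and 5.99% lower. At 48 h the counts were 3 higher and 1 lower, against 6.58% and 7.38% of all genes. Both comparisons use the same unstimulated arrays and are therefore not independent.

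**Figure D1:**
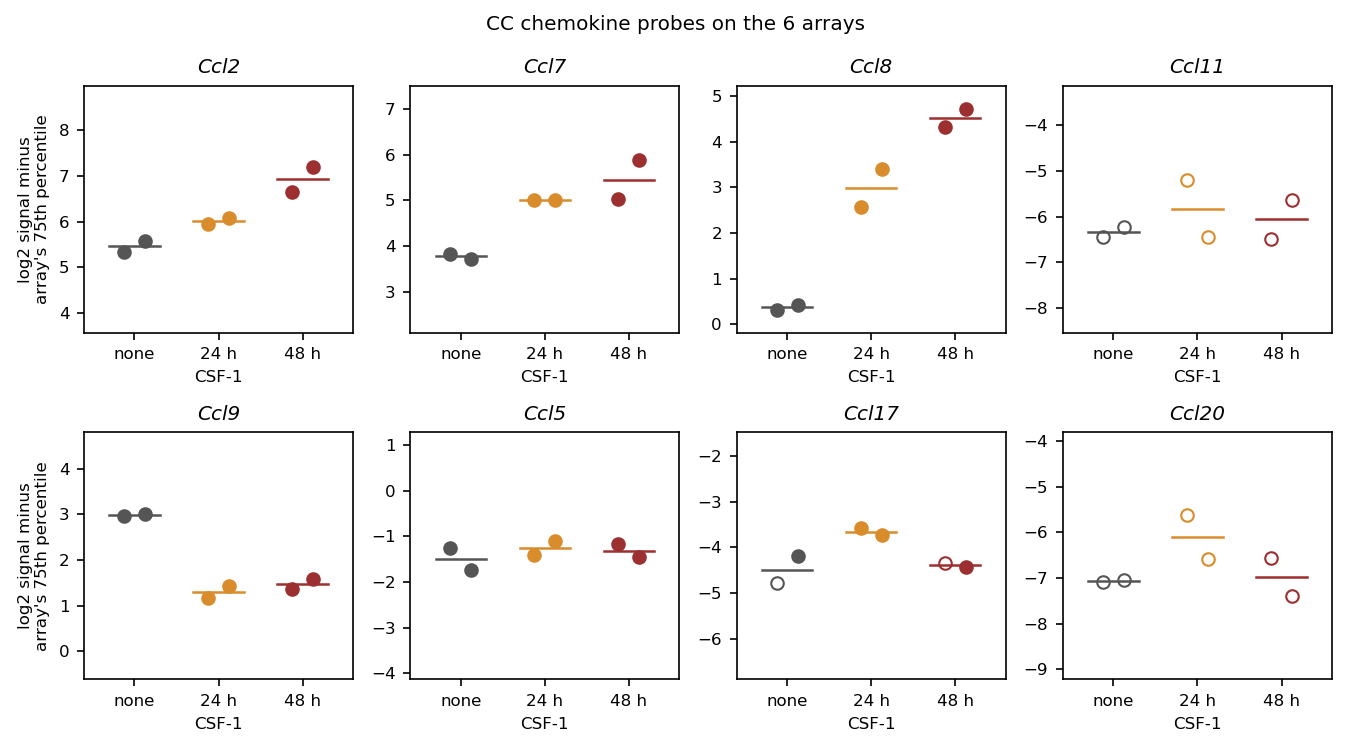
Level of each CC chemokine probe on the 6 arrays, in cells without added CSF-1 and after 24 h or 48 h with it. The vertical axis is log2 signal relative to the 75th percentile, with the same span in each panel and placed separately per probe. Points are arrays, open where the probe was not well above background, and lines are means of the 2 arrays; Ccl8 rises from 0.32 and 0.42 to 4.31 and 4.72, and Ccl9 falls from 2.97 and 3.01 to 1.36 and 1.57.

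Ccl8, a monocyte chemoattractant, changed most among the 6 genes tested. Its level was 0.32 and 0.42 on the unstimulated arrays, 2.57 and 3.40 at 24 h, and 4.31 and 4.72 at 48 h. The 3 groups did not overlap, and both 48 h arrays lay above both 24 h arrays. Such separation was common and is a description, here and for the genes below. Of all 24648 genes tested, 7707 lay wholly above the unstimulated arrays at 24 h and 6837 wholly below. At 48 h these counts were 5872 and 8622, and for 48 h against 24 h they were 3497 and 8315. The difference from unstimulated cells was 2.61 on the log2 scale at 24 h (SE 0.30, 6.11-fold, limma adjusted p = 0.00844) and 4.14 at 48 h (SE 0.30, 17.7-fold, limma adjusted p = 0.00237). The array on its own slide was the lower of the 24 h arrays. Without it the 24 h difference was 3.02 (limma adjusted p = 0.0137), and without the second unstimulated array it was 2.66 with an adjusted p of 0.0534 by limma, above the threshold.

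Ccl2, the best known ligand of Ccr2, was well above background without CSF-1, with processed signals of 22358 and 28998. Its level was 5.34 and 5.57 in unstimulated cells, 5.94 and 6.08 at 24 h, and 6.65 and 7.20 at 48 h. Each group lay above the one before it. The 10 spots of an array had a standard deviation of 0.056 to 0.090, which is smaller than the distance between the 48 h arrays. The change was 0.55 at 24 h (SE 0.21, 1.47-fold, limma adjusted p = 0.145), which did not pass, and 1.47 at 48 h (SE 0.21, 2.77-fold, limma adjusted p = 0.0152). With 1 of the unstimulated arrays left out, the 48 h change was 1.36 or 1.58 and its adjusted p by limma 0.0863 or 0.0646. Without the 24 h array on its own slide, the 24 h change was 0.62 (limma adjusted p = 0.277).

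Ccl7, which also binds Ccr2, read 3.83 and 3.72 without CSF-1, 5.01 and 5.00 at 24 h, and 5.03 and 5.88 at 48 h. Both stimulated groups lay above the unstimulated one, while the first 48 h array read much as the 24 h arrays did. Ccl7 rose by 1.23 at 24 h (SE 0.28, 2.35-fold, limma adjusted p = 0.0457) and by 1.68 at 48 h (SE 0.28, 3.20-fold, limma adjusted p = 0.0219). The 24 h call was close to the threshold. It was lost without any 1 of the 4 arrays compared, where the adjusted p by limma was 0.137 to 0.174 with changes of 1.18 to 1.29. Without the array on its own slide the change was 1.23 (limma adjusted p = 0.157). It was also lost with median centring (0.95, limma adjusted p = 0.0731) and with the replicate number as a block (limma adjusted p = 0.0567). The 48 h call was lost without the first or the second unstimulated array (limma adjusted p = 0.0996 and 0.102).

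Ccl9 moved the other way. Its level was 2.97 and 3.01 in unstimulated cells, 1.17 and 1.43 at 24 h, and 1.36 and 1.57 at 48 h. Both unstimulated arrays lay above all 4 stimulated arrays, and the stimulated groups overlapped. Ccl9 fell by 1.69 on the log2 scale at 24 h (SE 0.14, 3.22-fold, limma adjusted p = 0.00423) and by 1.52 at 48 h (SE 0.14, 2.87-fold, limma adjusted p = 0.00496). With any 1 array left out, the drop stayed between 1.55 and 1.82 at 24 h and between 1.41 and 1.62 at 48 h, with adjusted p by limma of at most 0.0397. Without the array on its own slide the 24 h difference was -1.55 (limma adjusted p = 0.0244). In bulk RNA, fewer cells that make a transcript and less of it per cell cannot be told apart.

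Ccl5, a chemokine for T cells and monocytes, was well above background on all 6 arrays. It read -1.25 and -1.75 without CSF-1, -1.40 and -1.11 at 24 h, and -1.16 and -1.46 at 48 h. The 3 groups overlapped. The difference was 0.24 at 24 h (95% interval -0.31 to 0.80, limma adjusted p = 0.516) and 0.19 at 48 h (95% interval -0.37 to 0.74, limma adjusted p = 0.63), and after median centring it was -0.04 at 24 h. Without the array on its own slide it was 0.39 at 24 h (limma adjusted p = 0.47). These intervals hold changes of either sign.

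Ccl17 was dim. Its probe read -4.78 and -4.19 in unstimulated cells, -3.58 and -3.73 at 24 h, and -4.35 and -4.42 at 48 h. It was not well above background on the first unstimulated and the first 48 h array. The 24 h arrays were the highest, and they were also the ones through which the gene entered the test. The difference was 0.83 at 24 h (SE 0.21, limma adjusted p = 0.0611) and 0.10 at 48 h (SE 0.21, limma adjusted p = 0.807). Without the second unstimulated array the first was 1.13, with an adjusted p of 0.0417 by limma, and with normexp, another background correction, it was 0.41. Without the array on its own slide it was 0.76 (limma adjusted p = 0.213). Ccl11 was not well above background on any array, with signals of 6.18 to 15.7, and neither was Ccl20, with signals of 3.57 to 11.5. For both, no change can be stated from these arrays.

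**Figure D2:**
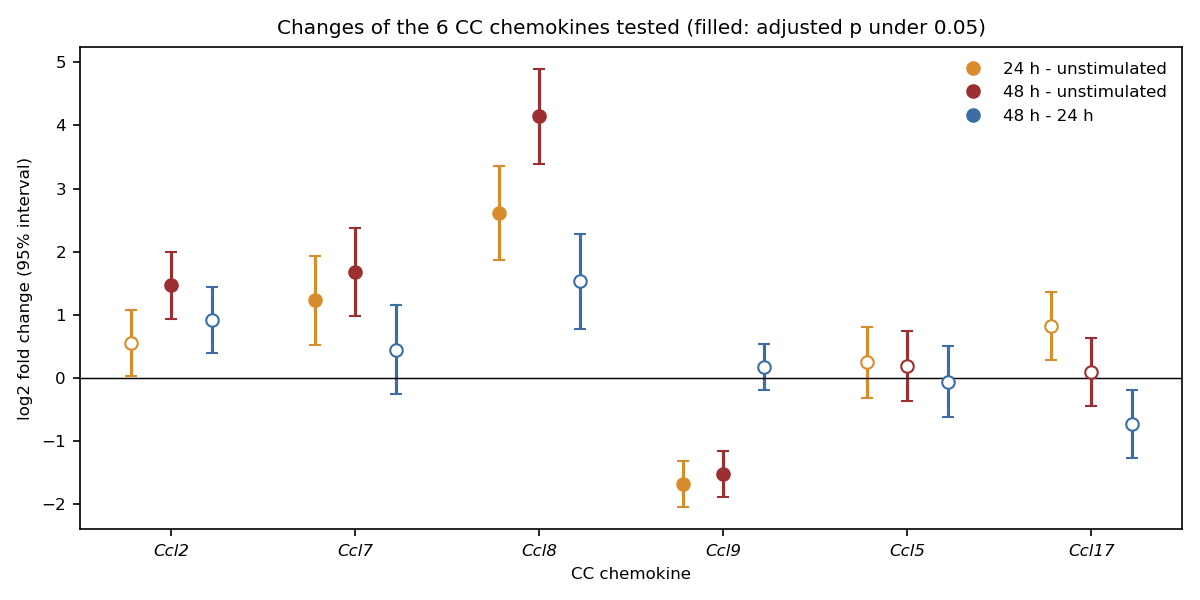
Log2 fold change with its 95% interval (vertical axis) of the 6 CC chemokines tested, for CSF-1 at 24 h and at 48 h against unstimulated cells and for 48 h against 24 h, from limma on 6 arrays. Filled points have an adjusted p under 0.05; for 48 h against 24 h all points are open, with Ccl8 at 1.53 and Ccl9 at 0.17.

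Between the 24 h and the 48 h arrays, none of the 6 genes was called by limma at an adjusted p under 0.05, as for all 24648 genes (0 called, 3357 at an unadjusted p under 0.05). Ccl8 was higher at 48 h by 1.53 (SE 0.30, 95% interval 0.78 to 2.28, limma adjusted p = 0.156). Ccl2 was higher by 0.91 (95% interval 0.39 to 1.44, limma adjusted p = 0.189), and both had an unadjusted p under 0.05. Without the 24 h array on its own slide, Ccl8 was higher at 48 h by 1.12 and Ccl2 by 0.85. Ccl17 differed by -0.73 (limma adjusted p = 0.256), or by -0.29 under normexp. As it entered the test through the 24 h arrays, where it was highest, and was not well above background on 1 of the 48 h arrays, that difference is given as a description. The intervals of Ccl7 (0.45, from -0.26 to 1.15), Ccl9 (0.17, from -0.20 to 0.53) and Ccl5 (-0.06, from -0.61 to 0.50) included 0. Ccl8 passed in 4 of 21 alternatives and did not in the other 17. Among those in which it passed, normexp with the 75th percentile gave 1.55 (limma adjusted p = 0.0316). A prior spread that follows intensity gave 1.53 (limma adjusted p = 0.0398).

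The study called a gene at a p under 0.05, for which it names no adjustment, and a 2-fold change. By that rule, with limma's unadjusted p, 3 of the 8 genes were called at 24 h, 4 at 48 h and 1, Ccl8, between the times. Over all genes tested these shares were 7.68%, 6.48% and 2.27%.

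Of the other CC chemokine ligands, 12 were on the array and 7 were tested. Ccl12, a monocyte chemoattractant next to Ccl8 on the chromosome, was the one that rose. It read -5.18 and -5.98 without CSF-1, where it was not well above background, -1.32 and -1.28 at 24 h, and 0.35 and 0.53 at 48 h. All 4 stimulated arrays lay above the unstimulated ones. Ccl12 was at least 14.6-fold higher at 24 h (limma adjusted p = 0.00235) and at least 49.0-fold higher at 48 h (limma adjusted p = 0.00102), where the unstimulated level was replaced by the lowest level well above background on the same array if that was higher. With the normexp background correction, which adds an offset of 50, its log2 differences were 1.68 and 3.20, less than those bounds. Such bounds, here and for the genes below, hold only for the background correction of the reported fit. Ccl6, next to Ccl9, read -3.65 and -3.44 without CSF-1 and was not well above background on any stimulated array. It entered the test through the unstimulated arrays alone, where it was highest. Its log2 difference from unstimulated cells was -2.13 at 24 h (limma adjusted p = 0.0207) and -1.36 at 48 h (limma adjusted p = 0.0625), which did not pass. The 24 h call was lost in 6 of 20 alternatives, with a difference of -0.29 under normexp. As the stimulated levels were so dim, the smallest drops they allow in the reported fit are 1.77-fold for 24 h and 2.31-fold for 48 h. These bounds follow the lowest level well above background on each array, so their order does not show a larger drop at 48 h. Ccl27a, a skin chemokine, fell by 0.57 at 48 h (limma adjusted p = 0.0426), a call lost in 13 of 21 alternatives. The median change of the 7 was -0.06 at 24 h and 0.01 at 48 h, against 0.04 and -0.04 over all genes tested.

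**Figure D3:**
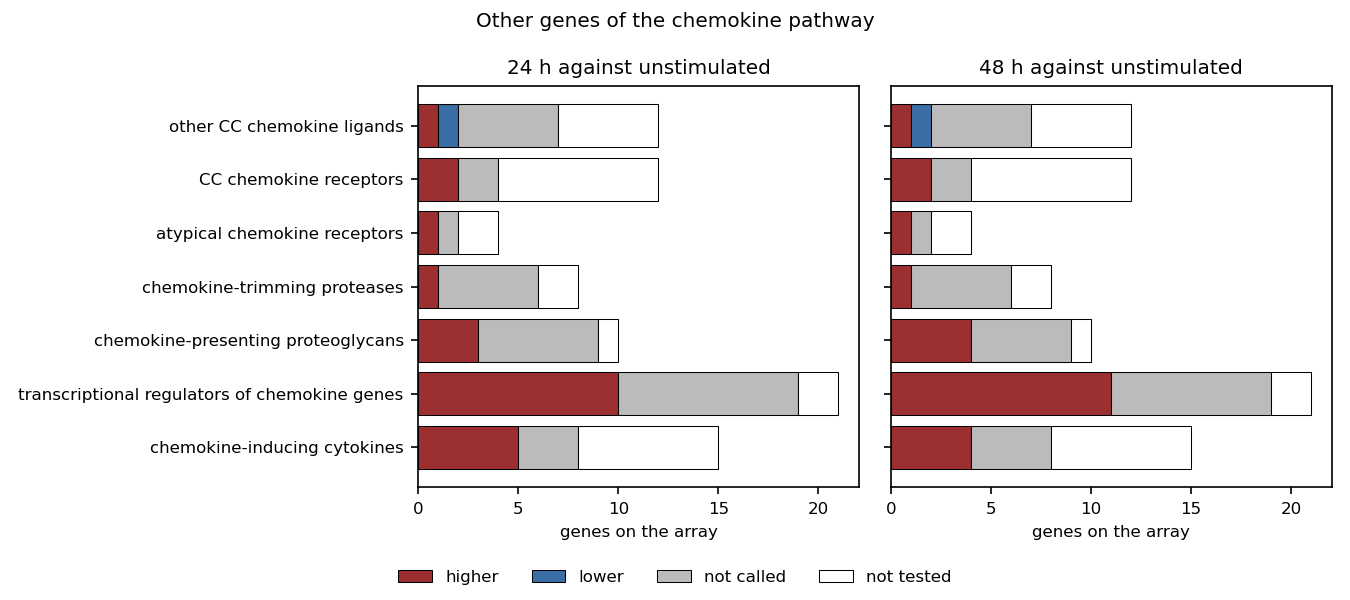
Number of genes on the array (horizontal axis) in each list of the chemokine pathway that were called higher, called lower, not called or not tested, for CSF-1 at 24 h and 48 h against unstimulated cells (adjusted p under 0.05, limma on 6 arrays). The transcriptional regulators, the longest list, hold 10 higher calls at 24 h and 11 at 48 h among 21 genes, and only the other ligands hold a lower call.

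Of the CC chemokine receptors, few were well above background on every array. Of 12 CC chemokine receptors on the array 4 were tested, and 2 were called higher and 0 lower at each time. Beside these counts and those of the lists below, 8.02% of all genes tested were called higher at 24 h and 5.99% lower. At 48 h these shares were 6.58% and 7.38%. Ccr1, Ccr2 and Ccr4, known receptors among those of the 8 ligands, were well above background on at most 2 of the 6 arrays. Ccr6, the receptor of Ccl20, was so on both 48 h arrays and on 1 array of each other group. Ccr3, a receptor of Ccl11, and Ccr8 were so on all 6. Ccr8, a receptor of T cells, rose by 0.97 at 24 h (limma adjusted p = 0.0109, a call lost in 8 of 21 alternatives) and by 1.16 at 48 h (limma adjusted p = 0.00712). Ccr3, the eotaxin receptor, rose by 0.93 at 24 h (limma adjusted p = 0.0412), a call lost in 13 of 21 alternatives with 0.38 under normexp, and differed by 0.25 at 48 h (limma adjusted p = 0.476). Ccrl2, which binds chemerin without signalling, differed by 0.37 at 24 h (limma adjusted p = 0.113) and rose by 0.61 at 48 h (limma adjusted p = 0.036), a call lost in 12 of 21. Among 4 atypical receptors, which take up chemokines without signalling through G proteins, 2 were tested and 1 rose. It was Cxcr7, now Ackr3, a scavenger of Cxcl12, at least 9.68-fold higher at 24 h (limma adjusted p = 0.00242) and at least 7.69-fold higher at 48 h (limma adjusted p = 0.00211), with differences of 1.52 and 1.35 under normexp.

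Proteins that cut or hold chemokines were mostly well above background. Of 8 proteases that trim chemokines 6 were tested, with 1 called higher and 0 lower at each time. The carboxypeptidase Cpd rose by 0.63 at 24 h (limma adjusted p = 0.0371), a call lost in 12 of 21 alternatives, and the stromelysin Mmp3 rose by 2.18 at 48 h (limma adjusted p = 0.0395), a call lost in 9 of 21. Of 10 proteoglycans and heparan sulphate enzymes 9 were tested, and 3 were called higher at 24 h and 4 at 48 h, with 0 lower. The syndecan Sdc3 rose by 1.05 and 1.62 at 24 h and 48 h (limma adjusted p = 0.00699 and 0.00211), Sdc4 by 1.18 and 0.73 (limma adjusted p = 0.0095 and 0.0322), and Sdc1 by 0.93 and 0.68 (limma adjusted p = 0.00844 and 0.0191). The 48 h calls of Sdc4 and of Sdc1 were each lost in 9 of 21 alternatives.

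Regulators of chemokine genes were the longest of these lists. Of 21 genes (Rel and NF-kB proteins, the NF-kB inhibitors Nfkbia and Tnfaip3, Nfkbiz, IRF and STAT factors, AP-1 and C/EBP proteins) 19 were tested. Of these, 10 were called higher at 24 h and 11 at 48 h, with 0 lower. Their median change was 0.96 at 24 h and 0.99 at 48 h, against 0.04 and -0.04 over all genes tested. Irf7, a driver of interferon responses, rose by 3.67 and 4.91 (limma adjusted p = 0.00145 and 0.000927), and by 2.12 and 3.21 with normexp. Stat2 rose by 2.77 and 3.54 (limma adjusted p = 0.00235 and 0.00127), and its partner Irf9 by 2.73 and 2.79 (limma adjusted p = 0.00437 and 0.00373). Of 15 cytokines known to induce chemokines 8 were tested, with 5 called higher at 24 h and 4 at 48 h and 0 lower. Tnf, Il1a, Il1b and Ifnb1 were not well above background on any array. Il33 rose by 4.80 and 4.55 (limma adjusted p = 0.00145 and 0.00138). Il6 rose by 5.56 and 6.41 (limma adjusted p = 0.00618 and 0.00407), with 1 of its 2 unstimulated arrays not well above background, and by 2.45 and 3.23 with normexp. Il18 was at least 2.25-fold and 3.31-fold higher (limma adjusted p = 0.00617 and 0.00315), with differences of 0.46 and 0.58 under normexp. It entered the test through the 48 h arrays alone, where it was highest.

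Genes outside the family with the pattern most like Ccl8 over the 6 arrays were Dach1, a transcription factor, H2-Bl, a class I histocompatibility gene, and Bst2, an antiviral membrane protein. Their root mean square differences from Ccl8, each gene centred on its own mean, were 0.18, 0.24 and 0.26 on the log2 scale. Dach1 was well above background on 2 of the 6 arrays and H2-Bl on 4, and under normexp the differences from Ccl8 were 1.26, 0.81 and 0.22, so the likeness of the first 2 depended on the background correction. Bst2 was above background on all 6 and rose by 2.15 at 24 h and 3.59 at 48 h (limma adjusted p = 0.00583 and 0.00146). Most like Ccl9 were Tprg, Ncam1, a neural cell adhesion molecule, and Clca2, with differences of 0.044, 0.11 and 0.12. Tprg fell by 1.74 at 24 h and by 1.55 at 48 h (limma adjusted p = 0.00295 and 0.00325). Clca2 was well above background on 4 of the 6 arrays and the other 2 on all 6. Under normexp the differences from Ccl9 were 0.17, 0.10 and 0.43. These genes were picked for their likeness, so their changes are a description.

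Chemokines are also made by macrophages and stromal cells, so markers of other cell types were read on the same arrays. Of 18 macrophage markers 12 were tested, with 3 called higher at 24 h, 4 at 48 h and 0 lower. Over all genes tested, 8.02% were called higher at 24 h and 6.58% at 48 h. Mrc1, the mannose receptor, rose by 4.27 and 3.56 (limma adjusted p = 0.000845 and 0.000927), Mpeg1 by 0.95 and 3.12 (limma adjusted p = 0.0282 and 0.00142), and Ctss was at least 5.44-fold higher at 48 h (limma adjusted p = 0.0074), with a difference of 0.78 under normexp. The 24 h call of Mpeg1 was lost in 9 of 21 alternatives. Ctss entered the test through the 48 h arrays alone, where it was highest. Of the 18 markers 9 were well above background on all 6 arrays (Ptprc, Emr1, Itgam, Cd14, Mrc1, Marco, Mpeg1, Fcer1g and Csf1r), 7 on some, and 2, Lyz2 and Cd163, on none. The summed macrophage level, as a percentage of the 75th percentile, was 7902 to 7926 without CSF-1, 7826 to 8023 at 24 h and 6351 to 7371 at 48 h, with 10 to 15 of 18 markers above background per array. The transduced Csf1r made up 37.1% to 51.7% of that sum, and without it the level was 4418 to 4967, 3783 to 4555 and 3363 to 4249. The part of such cells in the chemokine changes was not tested.

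No lymphocyte marker was called at either time by limma (0 of 7 tested at an adjusted p under 0.05, 1 at an unadjusted p under 0.05). Of 9 on the array 5 were well above background on all 6 arrays, Cd3e and Cd79a among them, and 2, Cd3g and Ms4a1, on none, and the summed level was 2482 to 3010, 2770 to 2962 and 2778 to 3573 in unstimulated, 24 h and 48 h cells. Of the granulocyte and mast cell markers 2 were tested, and Mcpt4 rose by 2.33 at 48 h (limma adjusted p = 0.00944) and by 1.003 under normexp, with summed levels of 6036 to 6339, 5798 to 6574 and 6511 to 7988. Of the 7 on the array Elane was well above background on all 6 arrays, and Kit, Mpo and Cpa3 on none. Of 6 endothelial markers 5 were tested. Cdh5 rose by 3.87 and 3.97 (limma adjusted p = 0.00308 and 0.00234), and by 2.14 and 2.25 under normexp. It and Mcpt4 were each well above background on 1 of the 2 unstimulated arrays. Vwf rose by 0.93 at 24 h (limma adjusted p = 0.042), a call lost in 12 of 21 alternatives with 0.40 under normexp, while Pecam1, Kdr and Vwf were well above background on all 6 arrays and Emcn on none, and the summed level was 1880 to 2544, 2060 to 2405 and 1880 to 2160.

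Fibroblast markers moved in both directions. Of 7 on the array 6 were tested, with 2 higher and 3 lower at 24 h and 1 higher and 3 lower at 48 h. Dcn, a matrix proteoglycan, rose by 2.08 and 2.78 (limma adjusted p = 0.0156 and 0.00744), with 1.36 at 24 h under normexp, while Pdgfrb fell by 1.91 and by 1.12 (limma adjusted p = 0.00839 and 0.0312) and Col1a2 fell by 1.44 and by 1.23 (limma adjusted p = 0.0133 and 0.0208). The 48 h call of Pdgfrb was lost in 9 of 21 alternatives. Lum was not well above background on any array, and the summed level was 32046 to 32405 without CSF-1, 13636 to 14544 at 24 h and 12031 to 16313 at 48 h. The epithelial origin of the line was not borne out by all of its markers. Cdh1, Foxa1 and Hoxb13 were not well above background on any array, Epcam on 1, while Krt8, Krt5 and Trp63 were above it on all 6. Krt8 rose by 1.98 at 48 h (limma adjusted p = 0.0106), the one of 7 tested to be called, and the summed level was 1592 on each unstimulated array, then 1229 to 1397 at 24 h and 1425 to 1629 at 48 h.

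**Figure D4:**
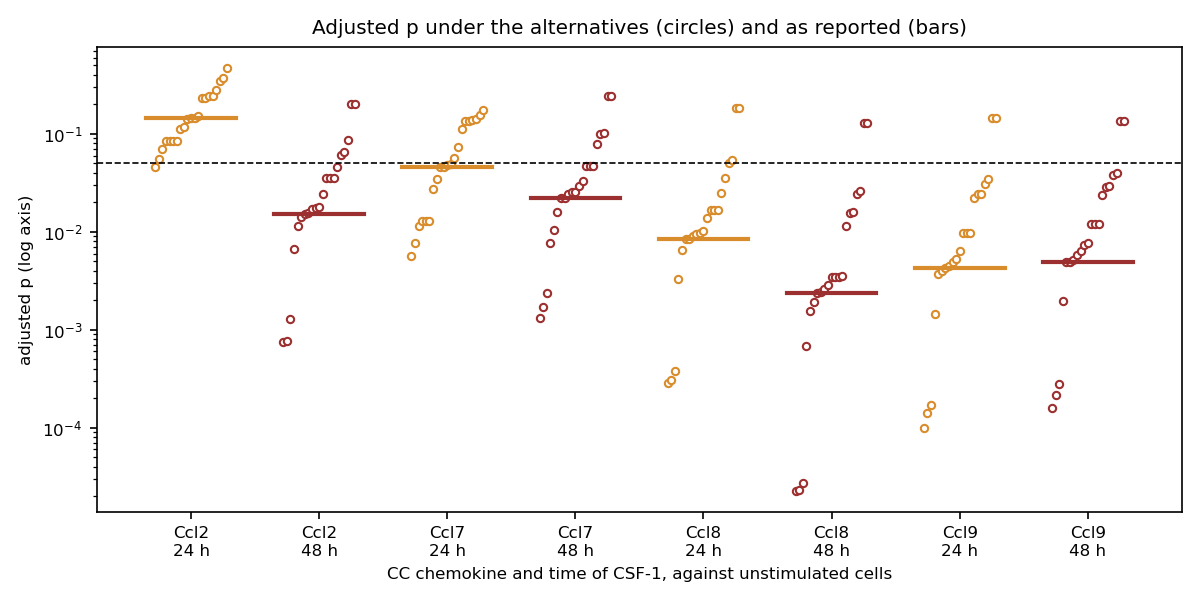
Adjusted p (vertical axis, log scale) of Ccl2, Ccl7, Ccl8 and Ccl9 after 24 h or 48 h with CSF-1 against unstimulated cells, as reported (bars) and under each of the 21 alternatives (circles; those that use the study's threshold are drawn at their adjusted p). The dashed line is 0.05; the topmost circles of Ccl8 and Ccl9 are the methods' test after adjustment.

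The plot of adjusted p under the alternatives separates the 4 genes. Ccl9 stayed called at both times, by the rule of each alternative, except in the methods' test after Benjamini-Hochberg adjustment, where no gene was called. Ccl8 did so at 48 h, and at 24 h with the further exception of the array left out above. The calls of Ccl2 at 48 h and of Ccl7 at both times were lost in more of the alternatives, 4, 8 and 5 of 21.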

How the data were processed

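The authors hybridised Cy3-labelled RNA of 2 independent experiments to one-colour arrays, scanned them and read them with Agilent Feature Extraction (11.0.1 in the submitters' processing notes). The deposited scanner files hold the processed intensity of each spot, background-subtracted by that software, and the authors' table holds log2 values of the same arrays. After centring, 99.8% of its differences lay within 0.05 of those of the scanner values over 44323 probes. The unit of the test was log2 intensity minus the 75th percentile of the array. Flagged spots were left out, which removed 303 probes, and a gene was its brightest probe. limma 3.58.1 in R 4.3.3 was fitted on all 6 arrays, leaving 3 residual degrees of freedom, with group means and no covariate, and was tested on simulated data. With 2 arrays a group the smallest exact permutation p is 0.333, so that test was not used.

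Genes named are the 8 CC chemokines, up to 3 called genes of each list (other ligands, receptors, atypical receptors, proteases, proteoglycans, regulators, cytokines and 6 marker lists) by mean absolute change, and the 3 genes most like Ccl8 and Ccl9. The members and lists were chosen with earlier results of these data known. The alternatives were other scalings, background corrections, probe filters, probe summaries, variance models, the replicate number as a block, the study's threshold and test, and each array left out. Array number limits the precision.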

Additional observations from a re-analysis of the deposited data

How the results depend on the processing

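Over 21 alternatives, 337 of 375 changes of the CC chemokines kept their direction and their side of the threshold, 22 were no longer called, 7 became called and 9 changed sign, all of them changes of Ccl5 or Ccl17 that were not called. With median centring Ccl5 was -0.039 at 24 h and 0.126 between the times and Ccl17 was -0.0015 at 48 h, and with quantile normalization Ccl17 was -0.050 at 48 h. With 1 array left out, Ccl5 ranged from -0.0026 to 0.491 at 24 h, from -0.060 to 0.434 at 48 h and from -0.207 to 0.091 between the times, and Ccl17 from -0.201 to 0.397 at 48 h. The sign turned without the second unstimulated array for Ccl5 at 24 h and 48 h, without the second 24 h or the second 48 h array for Ccl5 between the times, and without the first unstimulated array for Ccl17. Among list genes, Cpd was -0.0013 at 48 h with the mean of a gene's probes and Ctss -0.16 at 24 h with normexp and quantile normalization. At 24 h the number of CC chemokines called was 3, at 48 h 4 and between the times 0. The methods' t-test after Benjamini-Hochberg adjustment called 0 at 24 h and 0 at 48 h, as it did for all genes. Without a filter on dim probes 2 were called at 48 h, with 36028 genes tested in place of 24648. Between the times, 1 was called with normexp and the 75th percentile, 2 with normexp and quantile normalization, 1 with a prior spread that follows intensity and 1 by the study's threshold; the cause was not tested. With 1 array left out, the count at 24 h fell from 3 to 2 for each of the 4 arrays compared (Ccl8 and Ccl9, or Ccl9 and Ccl17 without the second unstimulated array) and was 3 for the other 2, ranged from 2 to 4 at 48 h, and was 0 between the times. With an array left out of a group, the lone array is assumed to vary like the other groups.

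Over all genes the count called ranged from 899 to 4903 at 24 h, from 870 to 5477 at 48 h and from 0 to 560 between the times, apart from the methods' t-test after adjustment, against 3454, 3441 and 0 as reported. Of the calls at 24 h 1977 were higher and 1477 lower, and with median centring 1197 were higher and 3706 lower. The replicate block gave 2 CC chemokines at 24 h, 4 at 48 h and 0 between the times, and 3800, 3967 and 0 genes. The labels do not tie the numbers to the experiments. Deviations of arrays with the same number from their group means correlated at 0.13, 0.094 and 0.20 between the groups. These values do not settle whether the arrays are paired. The reported fit used no block because the methods name none.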
